A study of Rattus norvegicus with 12 samples.

Results

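The 29 genes described here make cholesterol, move it within the cell and carry it out, and they were measured in dorsal root ganglia of the L6 level, where the cell bodies of spinal sensory neurons lie. The donors were male rats of the inbred Fischer 344 strain. They were found as all gene probes of a one-colour Agilent rat array whose accession belongs to one of the listed symbols. All 29 were found through 32 of the 30367 probes on the array, and every one of these probes was well above background on all 12 arrays. The members are 18 enzymes of synthesis, 2 genes of its control (Srebf2 and Insig1) and 9 genes of transport, storage, efflux and the liver X receptors (LXR). The rats came in 3 groups with 4 arrays each. Rats of old_CR, aged 25 to 28 months, were under 40% caloric restriction, with feeding on 3 weekdays that began at an age of 6 weeks. Rats of old_AL were of the same age and ate ad libitum, and so did rats of young_AL at 6 months. All groups share the strain, sex and tissue, no transgene or drug is named, and the ganglion was taken whole, so its RNA is a mixture of neurons, satellite glia, Schwann cells, macrophages and vessels.

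Animal cells build cholesterol from acetyl-CoA through mevalonate and the isoprenoids to squalene, which is closed into a ring and trimmed to cholesterol. The transcription factor SREBP2, encoded by Srebf2, turns these enzymes on when sterol in the endoplasmic reticulum is low, and Insig1 holds it back when sterol is plentiful. Oxysterols, made where cholesterol is in excess, activate the receptors LXRα (Nr1h3) and LXRβ (Nr1h2), which raise the exporters Abca1 and Abcg1 and the carrier Apoe. In peripheral nerve the main cholesterol store is myelin, made by Schwann cells, and macrophages handle cholesterol from membrane debris.

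The array of old_AL 1 stood apart before any gene was compared. Its 75th percentile of intensity was 7662, against 2634 to 3110 on the other 11 arrays, the share of spots well above background was 71.5% on it and 78.8% to 84.1% elsewhere, and 4026 of its spots had uneven signal, against 1 to 208. Because of these scan measures, the values below come from the other 11 arrays (3 of old_AL, 4 of each other group). The fit of all 12 is given beside them. Of the 29 members, 14 lay above and 10 below the range of the other 11 arrays on old_AL 1, which was not the ground for leaving it out. Among these 11, old_AL 4 also differed from the rest, with a 25th percentile of 79.7, against 37.7 to 44.6 on the other 10. It had the lowest median correlation (0.971), and it is 1 of the 3 old_AL arrays left. Uneven spots were 190 on it and 208 on young_AL 4, whose median correlation of 0.985 was the next lowest. On all 12 arrays limma called 0 of the 29 members in any of the 3 comparisons, where 4 (0.0191%), 1 (0.00478%) and 4 (0.0191%) of 20942 genes passed in all. At an unadjusted p under 0.05 the 12-array fit held 2 members lower and 2 higher in old_AL than in young_AL, 1 lower and 0 higher in old_CR than in old_AL, and 0 in old_CR against young_AL, where 6.71%, 5.96% and 2.72% of all genes had such a p. The arrays of old rats shared 1 slide and those of young_AL filled part of another, so that slide and age cannot be told apart, and old_CR and old_AL filled different rows of their slide, so diet and row cannot be told apart. Of the markers of sensory neurons, 10 of 10 were measured and well above background on every array.

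With age, the synthesis enzymes stood slightly lower as a group. In old_AL against young_AL all 18 enzymes had a negative difference, with a median of −0.12 and a range of −0.27 to −0.03 on the log2 scale, while the median over all 20849 genes tested was 0.03. Hmgcs1 and Idi1, both of the mevalonate branch, passed the test (limma, Benjamini-Hochberg adjusted p under 0.05 over all genes), and 16 did not. Of all 29 members 3 fell, 1 rose and 25 did not pass. In this comparison 3.24% of all genes were called, 2% higher and 1.25% lower. For 10 of the 18 enzymes no old_AL array overlapped a young_AL array, always with old_AL lower, against 7.67% of all genes with that pattern. The reverse, old_AL higher without overlap, held for 0 of the enzymes and 2 of the 29 members (Nr1h3 and the dim Soat1), against 11.9% of all genes. On all 12 arrays the signs were mixed, with 10 enzymes negative and 8 positive and a median of −0.10. In a whole ganglion, fewer cells of a type and less RNA per cell cannot be told apart.

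**Figure D1:**
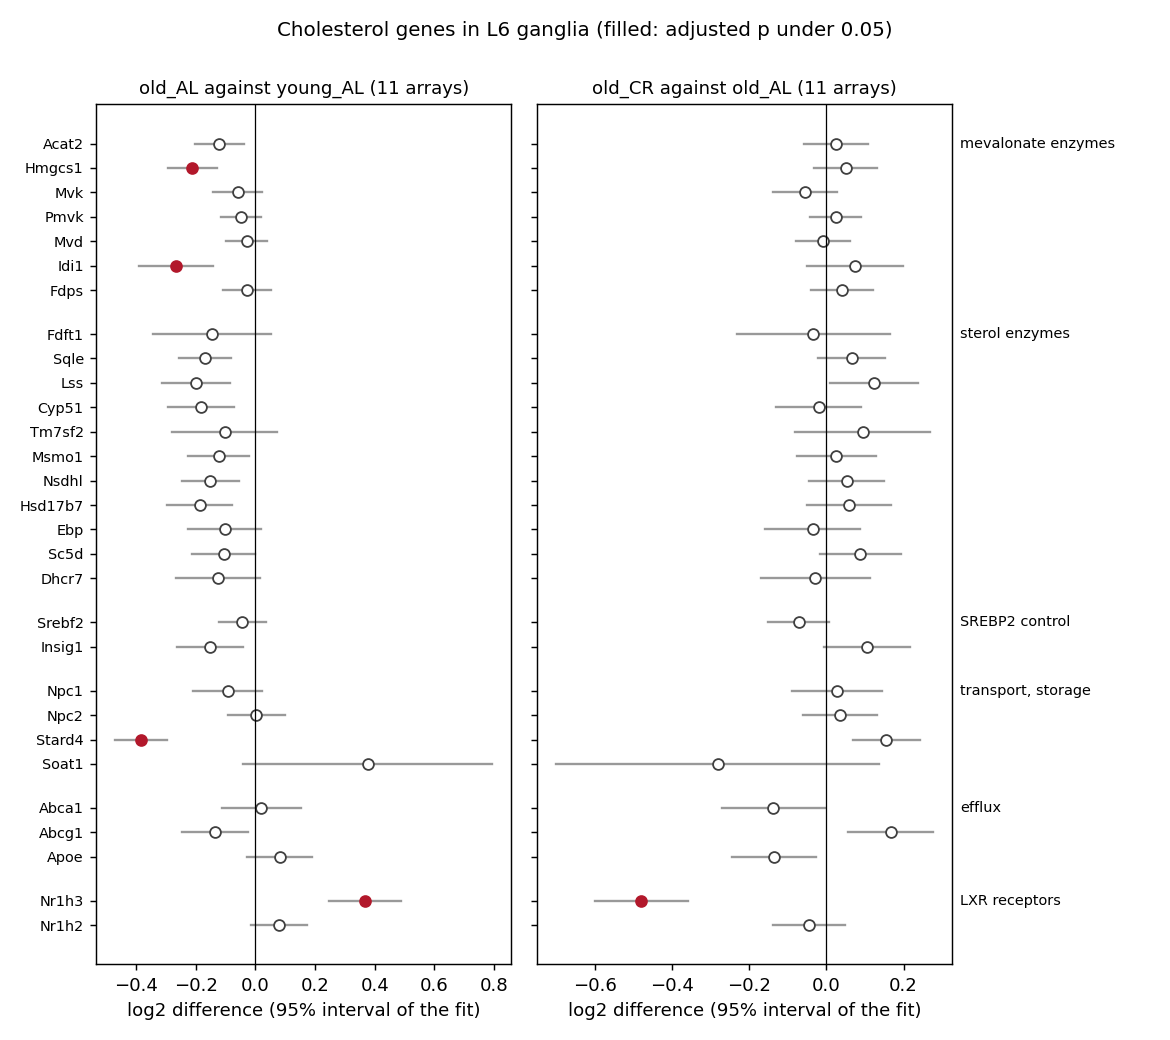
Log2 difference (x axis) of each of the 29 members with the 95% interval of the limma fit on 11 arrays, for old_AL against young_AL (left) and old_CR against old_AL (right). Filled points passed an adjusted p of 0.05: Hmgcs1, Idi1, Stard4 and Nr1h3 on the left and Nr1h3 on the right, and all 18 enzymes lie left of 0 in the left panel.

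Hmgcs1, the cytosolic synthase that commits acetyl units to the mevalonate route, had the smallest p of the 18 enzymes with age. Its log2 signal relative to the 75th percentile of the array was 5.69, 5.63, 5.67 and 5.67 in old_CR, 5.57, 5.60 and 5.67 in old_AL and 5.81, 5.84, 5.86 and 5.79 in young_AL. All 7 old arrays lay below all 4 young arrays, and old_AL 1 stood far above both at 6.61. The fall with age was −0.21 ± 0.04 (log2, SE, n = 3 against 4, adjusted p = 0.0257 in limma), a change in signal of −13.6%. The call ended without young_AL 2 (adjusted p = 0.067), young_AL 3 (0.0813), old_AL 2 (0.052) or old_AL 3 (0.0577), and with all 12 arrays the difference was 0.04 ± 0.20 (adjusted p = 0.914).

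Idi1, the isomerase that makes the reactive isoprene unit, had 2.05, 2.002, 2.05 and 2.05 in old_CR, 1.85, 1.96 and 2.08 in old_AL and 2.21, 2.32, 2.23 and 2.17 in young_AL on the same scale. The old_AL arrays were spread more widely than the others and still lay below every young_AL array. The fall with age was −0.27 ± 0.06 (adjusted p = 0.0407 in limma), a change in signal of −16.8%, and it was −0.15 ± 0.12 on all 12 arrays (adjusted p = 0.578). With 1 more array left out it passed in 1 of 11 fits, that without old_AL 4 (−0.32, adjusted p = 0.0304), and in the other 10 the adjusted p was at most 0.103. The other 5 enzymes of the branch did not pass: the thiolase Acat2 at −0.12, the kinases Mvk at −0.06 and Pmvk at −0.05, the decarboxylase Mvd at −0.03 and the prenyl synthase Fdps at −0.03. The second probe of Fdps gave −0.04.

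The 300 bases around the annotated starts of these 2 genes that fell are shown beside those of Insig1, whose product opposes SREBP2, and Nr1h3, which went the other way. They are from RefSeq on the build GRCr8, 250 bases before to 50 after the start, read 5′ to 3′ on the strand of the gene. Capitals mark CCAAT on either strand (ATTGG when reversed), the core of the site of NF-Y, a factor that works with SREBP2, and CACNCCAC on either strand, a short form of the sterol response element.
Hmgcs1, chr2:53382054-53382353, plus strand: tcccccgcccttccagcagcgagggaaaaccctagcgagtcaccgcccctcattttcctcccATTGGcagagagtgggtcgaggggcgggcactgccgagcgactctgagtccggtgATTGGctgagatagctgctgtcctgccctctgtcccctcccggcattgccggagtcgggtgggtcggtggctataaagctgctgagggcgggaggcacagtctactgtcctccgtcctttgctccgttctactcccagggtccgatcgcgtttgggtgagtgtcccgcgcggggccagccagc
Idi1, chr17:66547475-66547774, minus strand: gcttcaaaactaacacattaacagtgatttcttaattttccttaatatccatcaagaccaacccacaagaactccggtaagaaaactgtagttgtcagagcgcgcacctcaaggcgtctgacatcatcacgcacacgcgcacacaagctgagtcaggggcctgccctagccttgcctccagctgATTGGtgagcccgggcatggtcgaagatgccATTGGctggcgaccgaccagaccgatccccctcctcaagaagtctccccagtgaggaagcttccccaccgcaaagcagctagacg
Insig1, chr4:8057720-8058019, minus strand: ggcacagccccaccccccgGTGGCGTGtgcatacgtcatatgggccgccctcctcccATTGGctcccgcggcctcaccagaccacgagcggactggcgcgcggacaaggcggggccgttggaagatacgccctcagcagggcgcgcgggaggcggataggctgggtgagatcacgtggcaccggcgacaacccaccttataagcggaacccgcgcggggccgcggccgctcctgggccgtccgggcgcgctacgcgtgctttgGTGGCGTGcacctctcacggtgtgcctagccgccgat
Nr1h3, chr3:97623180-97623479, minus strand: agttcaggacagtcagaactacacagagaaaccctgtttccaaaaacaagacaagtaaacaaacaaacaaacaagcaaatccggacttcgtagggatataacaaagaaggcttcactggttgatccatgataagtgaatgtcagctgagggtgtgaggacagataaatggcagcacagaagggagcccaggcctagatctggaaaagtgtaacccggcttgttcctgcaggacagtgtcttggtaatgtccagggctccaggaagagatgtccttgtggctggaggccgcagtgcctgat

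Of the 29 members, 24 had a window in the RefSeq table: 15 enzymes, both genes of SREBP2 control and 7 of the others, among which Apoe has 3 windows, 2 of them overlapping. CCAAT stood in 12 of the 15 windows of synthesis enzymes (80%) and in 4 of the 9 windows of transport, efflux and LXR genes (44.4%), against 37.5% of all 33469 windows. By gene, the second count is 3 of 7 (Npc2, Soat1 and Apoe). CACNCCAC stood in 2 of the 15 enzyme windows (13.3%) and in 0 of the 9 others, against 5.8% of all windows, and GGGCGG, the GC box of the factor Sp1, in 13 of the 15 (86.7%) and in 6 of the 9 (66.7%), against 33.1%. A longer form of the sterol response element was also searched, and it stood in 0 of the 15 enzyme windows. It stood in 0 of the 2 windows of SREBP2 control and in 0 of the 9 others, against 0.269% of all windows. A paired site for LXR likewise stood in 0 of the 15, 0 of the 2 and 0 of the 9, against 0.00598%. Both are so rare that these few windows cannot show a lack of them. These counts describe letters in a short window and do not show binding.

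The 11 sterol enzymes, from squalene to cholesterol, were all lower in old_AL than in young_AL, at −0.20 to −0.10, and 0 passed in limma, where 6 had an unadjusted p under 0.05 (8.59% of all genes were lower at that p). Sqle, the oxygenase whose forward step limits the rate of this branch, came closest to the threshold. It had 3.597, 3.56, 3.66 and 3.63 in old_CR, 3.53, 3.52 and 3.59 in old_AL and 3.66, 3.76, 3.71 and 3.73 in young_AL. The old_AL arrays were all below the young_AL arrays, and the highest old_CR array lay just under the lowest of young_AL. Its difference with age was −0.17 ± 0.04 (n = 3 against 4, adjusted p = 0.0511 in limma), and 0.01 ± 0.15 on all 12 arrays. The cyclase Lss (−0.20), the ketosteroid reductase Hsd17b7 (−0.19), the demethylase Cyp51 (−0.18), the dehydrogenase Nsdhl (−0.15) and the desaturase Sc5d (−0.11) likewise had old_AL arrays below all young_AL arrays without passing. The groups overlapped for Fdft1 (−0.15), which makes squalene, and for Dhcr7 (−0.12), Msmo1 (−0.12), Tm7sf2 (−0.10) and Ebp (−0.10), which act late in the branch.

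The controllers of synthesis did not pass either. Insig1 had 1.20, 1.24, 1.16 and 1.28 in old_CR, 1.08, 1.13 and 1.14 in old_AL and 1.29, 1.35, 1.16 and 1.27 in young_AL. The old_AL arrays were the lowest of the 3 groups, old_AL 1 at 1.05 among them, while the other groups overlapped. The difference with age was −0.15 ± 0.05 (adjusted p = 0.117 in limma) on 11 arrays and −0.17 ± 0.08 on 12 (adjusted p = 0.578). Srebf2 differed by −0.04 ± 0.04 (adjusted p = 0.466), so its 95% interval ran from −0.12 to 0.03. In old_CR against old_AL Insig1 was higher without overlap, at 0.10 ± 0.05 (adjusted p = 0.211 in limma). Srebf2 was lower without overlap there, at −0.07 ± 0.04 (adjusted p = 0.227). On all 12 arrays these differences were 0.12 and −0.003. Against young_AL, Srebf2 was lower in old_CR without overlap, at −0.12 ± 0.03 (adjusted p = 0.0979). Of all genes 8.24%, 15.3% and 10.2% had these patterns in turn.

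**Figure D2:**
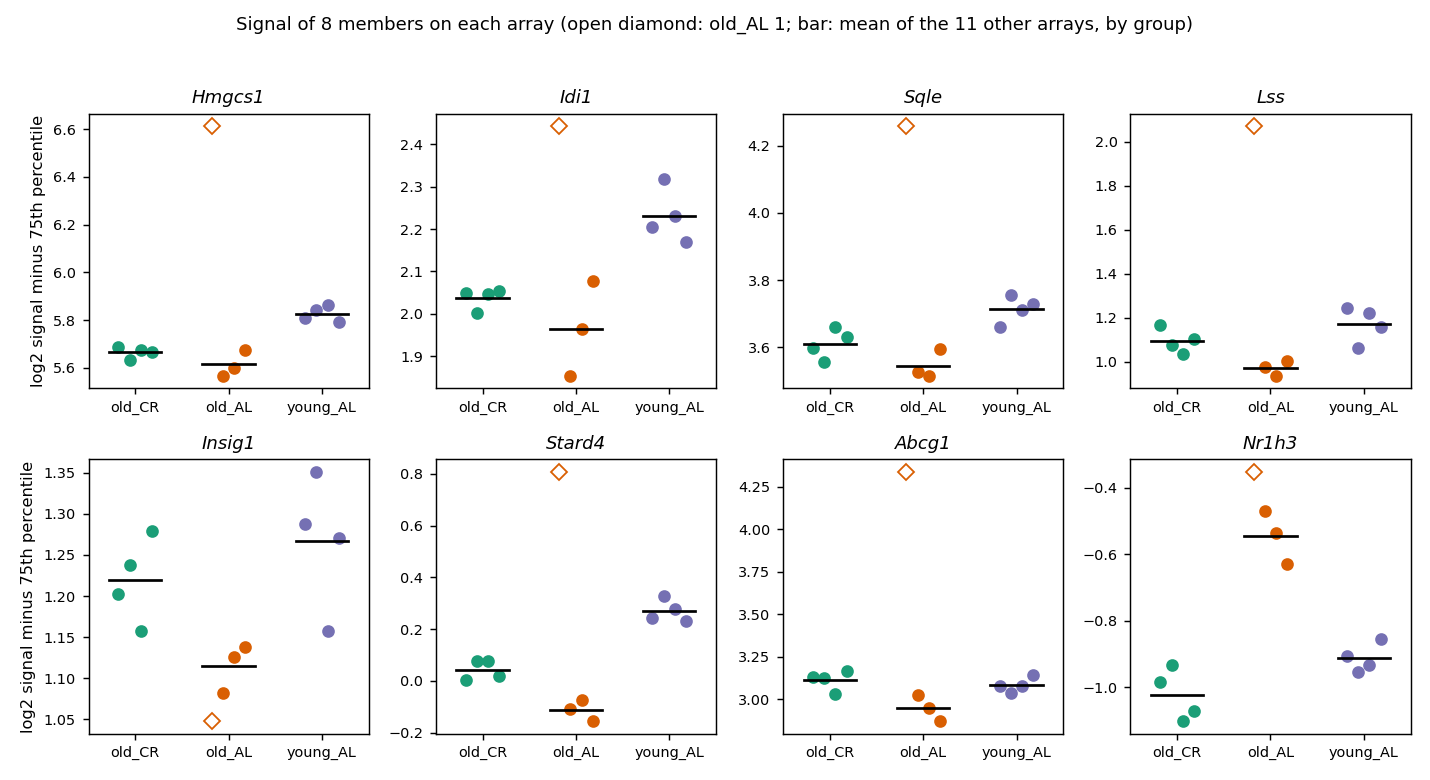
Log2 signal minus the 75th percentile of the array (y axis) of 8 members on each array, in old_CR, old_AL and young_AL, with the group mean over the 11 arrays as a bar and old_AL 1 as an open diamond. Nr1h3 is the member whose old_AL arrays all lie above both other groups, between −0.63 and −0.47 on old_AL 2, 3 and 4. On old_AL 1 it lies at −0.35. For Stard4 the 3 groups do not overlap on the 11 arrays.

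The mean of the 18 enzymes on each array, relative to young_AL, was −0.08, −0.13, −0.09 and −0.10 on the old_CR arrays, −0.19, −0.14 and −0.07 on old_AL 2, 3 and 4 and −0.03, 0.03, 0.01 and −0.01 on the young_AL arrays. The 7 old arrays all lay below the 4 young ones, old_AL spanned a wider range than old_CR, and old_AL 1 stood at 0.06. Markers of other cells were set beside these values. Of 9 listed markers of myelinating Schwann cells 8 were measured and 0 passed with age in limma, with a median of −0.18, and their array means were −0.50 to −0.11 in old_CR, −0.37 to −0.06 in old_AL and −0.11 to 0.12 in young_AL. Of 10 neuronal markers 3 fell (median −0.08). Their array means were −0.108 to −0.024 in old_CR, −0.117 to −0.070 in old_AL and −0.018 to 0.022 in young_AL, and 0.16 on old_AL 1. The old arrays thus lay below the young ones, old_AL 1 aside, as for the enzymes. Of 6 satellite glia markers 0 passed (median −0.06). Of 11 macrophage markers 5 rose (median 1.09), with array means of 0.51 to 0.97 in old_CR, 0.76 to 1.31 in old_AL and −0.30 to 0.16 in young_AL. Of 5 adipocyte markers 3 were measured and 1 rose (median 1.94), with array means of 1.42 to 2.56 in old_CR, 1.44 to 2.38 in old_AL and −0.17 to 0.24 in young_AL. The part of these cells in the enzyme values was not tested.

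**Figure D3:**
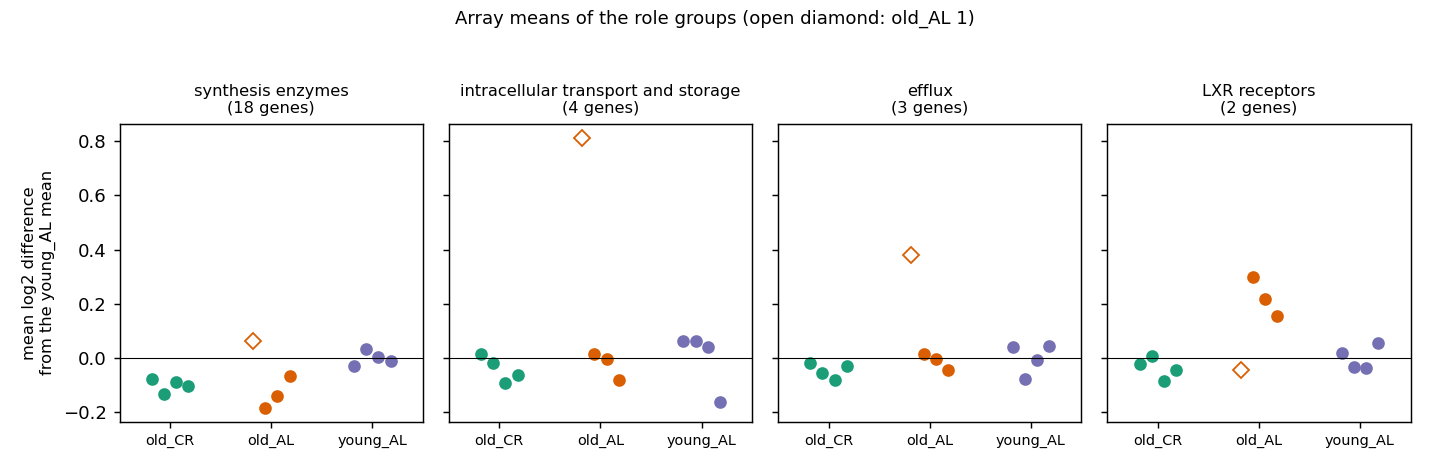
Mean log2 difference from the young_AL mean (y axis) over the genes of 4 role groups, 1 point per array, with old_AL 1 as an open diamond. The synthesis enzymes of the 7 other old arrays lie between −0.19 and −0.07, below the young_AL arrays, and the 2 LXR receptors lie highest on old_AL 2, 3 and 4, at 0.15 to 0.30, with old_AL 1 at −0.04.

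Among the genes that move cholesterol inside the cell, Stard4 fell and the other 3 did not pass. Stard4, a soluble carrier that shuttles sterol between membranes, had 0.00, 0.08, 0.08 and 0.02 in old_CR, −0.11, −0.07 and −0.16 in old_AL and 0.24, 0.33, 0.28 and 0.23 in young_AL. The 3 groups did not overlap, with old_AL lowest and young_AL highest, and old_AL 1 stood above all at 0.81. The fall with age was −0.38 ± 0.04 (n = 3 against 4, adjusted p = 0.00563 in limma), a change in signal of −23.3%, and it passed in 11 of 11 fits with 1 more array left out. On all 12 arrays it was −0.15 ± 0.19 (adjusted p = 0.638). A fit of old_AL and young_AL alone, with fewer samples behind the spread, ended the calls of Stard4 (adjusted p = 0.0595), Hmgcs1 (0.122), Idi1 (0.156) and Nr1h3 (0.0978) with age. This probe has 10 spots. A second probe, with 1 spot, did not follow it, at 0.09 ± 0.12 (adjusted p = 0.666 over all probes), and the mean of both probes gave −0.15 (adjusted p = 0.192). On the second probe, the dimmer of the 2, old_AL 2, 3 and 4 were at −2.89, −2.95 and −2.39, against −2.91 to −2.77 in young_AL.

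Npc1, which lets cholesterol out of lysosomes, differed by −0.09 ± 0.05 with age (adjusted p = 0.307 in limma) and by −0.12 ± 0.04 on its second probe (adjusted p = 0.124). Its soluble partner Npc2 differed by 0.00 ± 0.04, with a 95% interval of −0.09 to 0.10. The arrays of Soat1, which esterifies cholesterol for storage, ran from −5.76 to −5.29 in old_CR, −5.36 to −5.12 in old_AL and −6.18 to −5.38 in young_AL. Its difference of 0.38 ± 0.19 with age did not pass (adjusted p = 0.259).

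Of the 2 LXR genes, Nr1h3 rose with age and Nr1h2 did not pass. Nr1h3, which encodes LXRα and is prominent in macrophages, had −0.99, −0.93, −1.10 and −1.07 in old_CR, −0.47, −0.54 and −0.63 in old_AL and −0.91, −0.95, −0.93 and −0.86 in young_AL. All 3 old_AL arrays lay above the 8 others, and old_AL 1 lay on the same side at −0.35. With age it rose by 0.37 ± 0.05 (n = 3 against 4, adjusted p = 0.0174 in limma), which is 29% more signal, and the difference was 0.42 ± 0.09 on all 12 arrays (adjusted p = 0.31). The call ended without young_AL 2 (adjusted p = 0.0507) or young_AL 3 (0.0598). The widely expressed LXRβ gene Nr1h2 differed by 0.08 ± 0.04 (adjusted p = 0.28), and by −0.10 ± 0.15 on all 12 arrays. The rise of Nr1h3 stood beside that of 5 of 11 macrophage markers with the array ranges given above, and the part of macrophages in it was not tested.

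Of the efflux genes 0 of 3 passed with age in limma, 1 of them with an unadjusted p under 0.05. Abcg1, which loads cholesterol on lipoproteins, had 3.13, 3.13, 3.03 and 3.17 in old_CR, 3.02, 2.94 and 2.87 in old_AL and 3.07, 3.04, 3.08 and 3.14 in young_AL. The old_AL arrays lay below the others, though old_AL 2 nearly met the lowest of them, and old_AL 1 was at 4.34. The difference was −0.14 ± 0.05 (adjusted p = 0.145), and 0.21 ± 0.27 on all 12 arrays. The exporter Abca1 differed by 0.02 ± 0.06 and the lipid carrier Apoe by 0.08 ± 0.05, with intervals of −0.11 to 0.15 and −0.03 to 0.19.

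Under caloric restriction, 1 of the 29 members passed against old_AL, and it was again Nr1h3. It fell by 0.48 ± 0.05 on the log2 scale in old_CR (n = 4 against 3, adjusted p = 0.0251 in limma), a change in signal of −28.2%, where 1.06% of all genes were called, 0.269% higher and 0.796% lower. It was −0.53 ± 0.09 on all 12 arrays (adjusted p = 0.283), with every old_CR array below every old_AL array there as well (4.55% of all genes on 12 arrays). The call ended without old_AL 4 (adjusted p = 0.0585) or old_CR 4 (0.0947), and with the compared groups alone (0.093). This comparison and the one with age share the old_AL arrays, so the opposite signs are not independent of each other. Macrophage markers had a median of −0.38 in old_CR against old_AL, with 0 of 11 passing in limma.

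The synthesis enzymes did not pass with restriction. Of the 18, 12 had a positive and 6 a negative difference, the median was 0.03 against −0.05 over all genes, and 0 were called. Without old_AL 4 it was 16 and 2 with a median of 0.06, and on all 12 arrays 9 and 9 with a median of 0.01. In the 11-array fit 1 enzyme, Lss, was higher at an unadjusted p under 0.05, against 7.15% of all genes. Intervals reached from −0.23 at the lowest, for Fdft1, to 0.27 at the highest, for Tm7sf2, so differences of the size seen with age stayed within them for some enzymes. Lss had the smallest p among them. It had 1.16, 1.07, 1.03 and 1.10 in old_CR, 0.97, 0.94 and 1.002 in old_AL and 1.24, 1.06, 1.22 and 1.16 in young_AL. The old_CR arrays lay above the old_AL arrays and overlapped those of young_AL, and the difference against old_AL was 0.12 ± 0.05 (adjusted p = 0.165), or −0.15 ± 0.22 on all 12 arrays. In the mevalonate branch the smallest p was that of Mvk, with −0.45, −0.55, −0.55 and −0.52 in old_CR, −0.50, −0.46 and −0.43 in old_AL and −0.43, −0.37, −0.40 and −0.41 in young_AL. The old_AL arrays overlapped both other groups, which did not overlap each other, and the difference against old_AL was −0.05 ± 0.04 (adjusted p = 0.35).

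Of the 7 genes of transport, storage and efflux, 4 had old_CR and old_AL arrays that did not overlap and 0 passed, while Npc1 (0.03), Npc2 (0.04) and Soat1 (−0.28) overlapped. Stard4 differed by 0.16 ± 0.04 in old_CR against old_AL (adjusted p = 0.0692 in limma), Abcg1 by 0.17 ± 0.05 (adjusted p = 0.0909), Apoe by −0.14 ± 0.05 (adjusted p = 0.129) and Abca1 by −0.14 ± 0.06 (adjusted p = 0.18). Without overlap, 8.24% of all genes were higher and 15.3% lower here. Of the 29 members 5 were higher in that way and 4 lower. On all 12 arrays the differences of Stard4 and Abcg1 were −0.07 and −0.18, so their sign rests on leaving old_AL 1 out. The second probe of Stard4 gave −0.28 ± 0.12 (adjusted p = 0.184 over all probes), opposite to the first.

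Old restricted rats were also set against young rats, where age and diet both differ. Stard4 fell by 0.23 ± 0.04 (n = 4 against 4, adjusted p = 0.0188 in limma) and Hmgcs1 by 0.16 ± 0.03 (adjusted p = 0.0427), and the other 27 members did not pass, where 2.41% of all genes were called, 0.787% higher and 1.63% lower. The old_AL arrays enter this comparison only through the shared estimate of spread, and with all 12 arrays both differences stayed the same in size with an adjusted p of 1. Hmgcs1 passed in 2 of the 11 further leave-outs, those without old_AL 2 or old_AL 4, and Stard4 in 7, its call ending without young_AL 2, young_AL 3, old_CR 1 or old_CR 4 (adjusted p of 0.0512 to 0.0641). The call of Stard4 also ended with the mean of its probes (−0.21, adjusted p = 0.0901). Beside these falls, 3 of 6 satellite glia markers (median −0.34) and 1 of 8 Schwann cell markers (median −0.37) fell. So did 2 of 10 neuronal markers (median −0.06) and 1 of 4 fibroblast markers (median 0.01). Meanwhile 3 of 11 macrophage markers (median 0.66) and 2 of 3 adipocyte markers (median 1.09) rose, and the part of these cells was not tested. Nr1h3 was lower in old_CR than in young_AL without passing, at −0.11 ± 0.05 (adjusted p = 0.277 in limma). Of the members that did not pass, Cyp51 came closest at −0.20 ± 0.05 (adjusted p = 0.0536 in limma). Of the 18 enzymes 17 were lower, with a median of −0.10, and 9 had no overlap, all with old_CR lower, against 10.2% of all genes. The second probe of Npc1, which has 2 spots, fell by 0.17 ± 0.04 when every probe was tested on its own (adjusted p = 0.0448), while its other probe, with 1 spot, gave −0.07 ± 0.05.

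The group means can be ordered without a test. For 17 of the 18 enzymes young_AL was the highest of the 3 groups, old_AL was the lowest for 12 and old_CR for 6, and for 11 the old_CR mean lay between the others. The same means enter each of these comparisons.

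A list of 36 other sterol genes, of which 31 were measured, gave a mixed picture with age, with 2 genes higher, 1 lower and 28 not passing, and a median of 0.02. Pltp, which transfers phospholipid between lipoproteins, rose by 1.11 ± 0.20 (adjusted p = 0.03 in limma), and Apod, a lipid-binding apolipoprotein of glia and fibroblasts, by 0.82 ± 0.17 (adjusted p = 0.039). Abcg4, a sterol exporter of neurons related to Abcg1, fell by 0.26 ± 0.05 (adjusted p = 0.0278). On all 12 arrays 0 of the 31 passed in limma, and 3 had an unadjusted p under 0.05. Leaving out 1 further array kept Abcg4 in 8 of 11 fits, Pltp in 5 and Apod in 2, while none of the 3 passed with old_AL and young_AL fitted alone (adjusted p of 0.128, 0.114 and 0.108). Apod also missed the threshold with array weights (adjusted p = 0.0536). In old_CR against old_AL, Apoc1, a small apolipoprotein that macrophages make with Apoe, was the 1 gene of the list that passed, at −0.35 ± 0.05 (adjusted p = 0.0337, 5 of the 11 leave-outs, and 0.116 with the compared groups alone), and its difference was 0.25 ± 0.46 on all 12 arrays. In old_CR against young_AL, Gramd1b, which carries cholesterol from the cell surface to the endoplasmic reticulum, was the 1 that passed, at −0.29 ± 0.04 (adjusted p = 0.0158, 8 of the 11 leave-outs).

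The scaling of the 11 arrays changed how many enzymes passed, and with restriction it changed directions too. In old_AL against young_AL all 18 enzymes were negative after quantile normalization, median centring and normexp, with medians of −0.16, −0.23 and −0.12. Of the enzymes 7, 16 and 6 passed, against 2 in the fit above. Of all 20849 genes 823, 2578 and 525 were called lower in these fits, against 260 in the fit above. Median centring moved all genes of an array alike, and with it the median of all genes became −0.07. The enzyme median minus that of all genes was −0.16 in the fit above, −0.11 after quantile normalization and −0.19 after normexp. In old_CR against old_AL, 12, 18 and 13 of the enzymes were positive after the same 3 changes, against 12 in the fit above, so all 6 with a negative difference turned under median centring. Of the enzymes 0, 6 and 0 passed there, where 273, 1826 and 506 of the 20849 genes were called higher. The share of calls that were higher moved with the scaling as well, to 22.9%, 13.1% and 86.3% with age, against 61.5% in the fit above, and to 69.5%, 86.7% and 10.69% with restriction, against 25.2%.

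**Figure D4:**
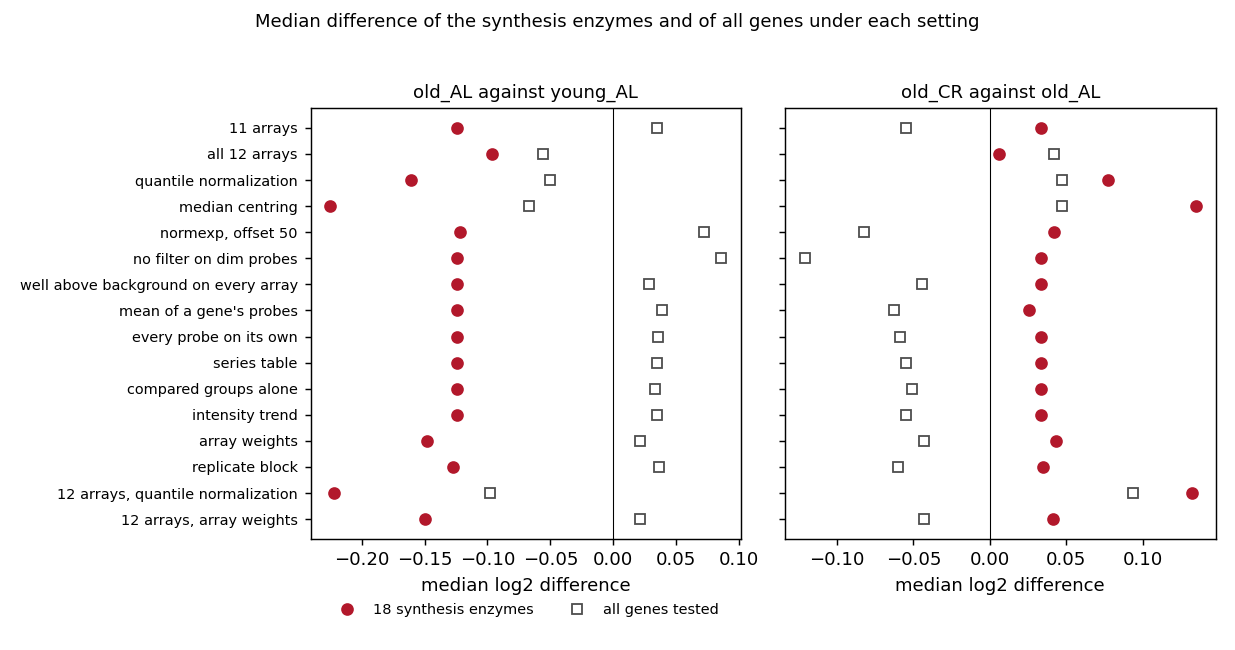
Median log2 difference (x axis) of the 18 synthesis enzymes (filled circles) and of all genes tested (open squares) under each way of processing (rows), for old_AL against young_AL (left) and old_CR against old_AL (right). With age the enzyme median lies left of that of all genes in every row, from −0.23 to −0.10, and the smallest gap, −0.04, is on all 12 arrays.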

How the data were processed

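Total RNA of each ganglion sample was labelled with Cy3 and hybridised to a one-colour array, per the labels' protocols. The deposited spot intensities are linear and come from Agilent Feature Extraction 10.7, per the submitters' processing notes, already background-subtracted and detrended within each array, per the file headers. The deposited table of the whole series holds the same intensities (largest difference 0). Here each array was scaled to its 75th percentile of processed intensity on the log2 scale. Control spots were dropped, outlier spots set to missing and spots of a probe averaged. Probes well above background (in a share of at least 0.5 of their spots) on fewer than 4 arrays were left out, and for each gene the probe with the highest mean stood for it. Of 30367 probes, 17998 matched 15154 symbols in RefSeq annotation of GRCr8. Because the arrays carry the tag of an older build, GRCr8 coordinates are given for promoters alone.

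The tests used limma 3.58.1 (lmFit, eBayes, 1 mean per group, 11 arrays) in R 4.3.3 with Benjamini-Hochberg adjustment over all 20849 genes at 0.05. The scripts were tested on simulated data. The number of arrays limits the precision, and since no label says that the samples of a group came from separate animals, the p-values measure only the spread between these samples, which may be partly technical. The members, the gene lists, the rule for genes given on every array (those that passed, and the smallest p of each role group with age and with diet) and the choice of 11 arrays were made with earlier results of these data known. Alternatives were quantile normalization, median centring, normexp with an offset of 50 on median signals, other filters and probe rules, the series table, array weights, a replicate block, a trend with intensity, a fit of the compared groups alone and each array left out. Quantile normalization and array weights on 12 arrays, and the median of the 18 enzymes as a result were added after the data were seen.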

Additional observations from a re-analysis of the deposited data

Results flagged for a closer look

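In the groups of 4 arrays, 58 sets of member values were searched for an array far from its group, and 1 was found. Idi1 stood at 2.002 on old_CR 2, while the other old_CR arrays lay at 2.05, so the gap to the nearest of them was 0.852 of the range of the group, above Dixon's 95% critical value. Chance alone would give about 2.9 such gaps in 58 sets. The gap itself was small, and old_CR 2 stayed within the range of the old_AL arrays.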

How the results depend on the processing

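The table of the series gave the same counts as the array files. Genes called in old_AL against young_AL, 676 on the 11 arrays, came to 4 on all 12, 1067 after quantile normalization, 2968 after median centring, 3838 after normexp, 25 with the compared groups alone, 1089 with an intensity trend and 17 on 12 arrays after quantile normalization. Members called there, 4, came to 0, 9, 21, 9, 0, 8 and 0 in these fits, and to 7 with array weights on 11 and on 12 arrays. In old_CR against old_AL, 222 genes came to 1, 393, 2107, 4732, 0, 865 and 3 in the same 7 fits, 128 with no filter, 370 where a probe had to exceed background on all arrays, 431 with array weights and 379 with them on 12 arrays; members, 1 on the 11 arrays, came to 0 on 12, 10 after median centring, 4 after normexp, 0 with the compared groups alone, 2 with a trend and 0 on 12 arrays after quantile normalization. In old_CR against young_AL, 503 genes came to 4 on all 12 arrays, 226 with no filter, 879 with the compared groups alone, 1878 with array weights, 3 on 12 arrays after quantile normalization and 2052 on 12 with weights; members, 2 on the 11 arrays, came to 0 on 12, 1 after normexp, 1 with no filter, 1 with the mean of probes, 4 with the compared groups alone, 8 with weights on 11 or 12 arrays and 0 on 12 after quantile normalization.

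The enzyme median moved beyond the spread between arrays with age to −0.23 after median centring and −0.22 on 12 arrays after quantile normalization, and with restriction to 0.077 after quantile normalization, 0.13 after median centring and 0.13 on 12 arrays after quantile normalization. Signs turned on all 12 arrays, that of Hmgcs1 with age (0.038) and that of Apoc1 with restriction (0.25, and 0.10 after quantile normalization there). Leaving out 1 further array gave 70 to 401 genes and 1 to 5 members with age, 1 to 919 and 0 to 1 with restriction, and 42 to 862 and 0 to 4 in old_CR against young_AL, with enzyme medians of −0.16 to −0.10, 0.02 to 0.06 and −0.12 to −0.10. The causes were not tested. The source labels number the arrays 1 to 4 in each group, while the sample titles carry other numbers, whose meaning is not stated. With the number of the source label as a replicate block, 20, 1 and 17 genes and 1, 0 and 0 members passed. Same-numbered arrays did not deviate together (correlations of −0.09 to 0.09 over 10 pairs, against −0.13 to 0.10 over 30 others), and 4 of 11 arrays correlated best with one of their own number, so the numbers were not taken as pairs.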
